A study of Mus musculus with 2 samples.

Results

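Among the mRNAs of the mouse heart that were pulled down with tagged NAT10, 35 named genes carried 5 or more summits each once 15 genes set aside by name and predicted Gm genes were left out. A summit is a local high point within a peak, a region where the pulldown library rose above the Input library. A single peak can hold several summits. The genes were chosen by counting distinct summits in the deposited table for each gene it assigned. Of the 990 genes with a summit, 55 reached 5, which is 5.56% of them. The rule left out 15 of these by name (Ttn, Ryr2, Myh6, Naca, Dsp, Dst, Macf1, Plec, Ahnak, Cmya5, Xirp1, Xirp2, Nrap, Pde4dip and Dync1h1) and 1 as a Gm gene. Of the 39 that were left, 35 had a symbol in the table and are described here, and 4 had none. The 35 genes held 241 summits in 198 peaks, 11.9% of the 2020 summits of the list, on 19 chromosomes. Because the number of summits chose the genes, every count of summits below is a description.

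Wild-type mice were given AAV9-cTnT-FLAG-NAT10, a viral vector, under the skin at day 1 after birth, and hearts were taken 20 days after the injection. The cTnT promoter is active in heart muscle cells, so the tagged protein was made in addition to the heart's own NAT10. Lysate from these hearts gave 1 library after pulldown with anti-FLAG beads (RIP) and 1 library from lysate set aside before it (Input), so both carry the vector. How many animals were used or pooled is not given in the sources used here, and no pulldown from hearts without FLAG-NAT10 was analysed here.

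NAT10 is an acetyltransferase that adds acetyl groups to cytidines in RNA, above all in ribosomal RNA, in transfer RNA and, as described more recently, in mRNA. A pulldown of the protein brings along whole RNA molecules or long stretches of them, so a summit marks where reads rose over Input and not an acetylated base. In the heart, many of the longest and most abundant mRNAs encode proteins of the sarcomere, the contractile unit built of thin filaments anchored at Z-discs and thick filaments crosslinked at M-bands.

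The whole list gives the scale for what follows. Each summit has 1 score, the authors' -log10 of a p or q value, and which of these it is was not given. Over the 2020 summits the median score was 12.5 and the upper quartile was 28.3. Summits outside the 35 genes and the 15 set aside by name had a median score of 10.5, and those of the 15 genes a median of 24.2. Among cell type markers, 9 of 14 heart muscle cell genes had a summit, with strongest scores from 6.09 to 1524. Endothelial cells had 4 of 8, fibroblasts 2 of 6, mural cells 1 of 5, leukocytes 1 of 5 and erythroid cells 0 of 3, and the highest score among them was 24.9 for Col1a1. The table holds no read counts, so depth is unknown, and enrichment in the pulldown cannot be told apart from a high level of the mRNA. With 1 library per group no test between conditions is possible. Intervals are exact, at 95%, and cover counting error only, and summits of 1 gene are not independent.

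The 241 summits had a median score of 9.56 (interval 8.08 to 10.97), with quartiles of 5.19 and 18.2 and a range from 1.32 to 233. In these genes, many summits were therefore of middling or low score. At or above the upper quartile of the list stood 38 of them, or 15.8%, where the share over the list is 25.0%. The strongest summit of each gene gave another order: it reached the upper quartile in 22 of the 35 genes, against 25.1% of all genes with a summit. A gene with more summits has more chances for a high one, and the rule asks for many.

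At the threshold, 11 genes had exactly 5 summits, among them Kif1b, Trdn, 1110002E22Rik, Svil, Hipk3, Rbm20, Alpk2, Pcdh7, Prrc2b and Slc8a1. Their strongest scores ran from 11.9 to 81.4, with a median of 21.7. Just below stood 24 genes with 4 summits, of which 21 had a symbol, with strongest scores from 5.45 to 152 and a median of 31.2. Among these were Arhgef17, Tpm1, Pygb, Tnrc18, Arid1a, Ogdh, Cluh, Vps13d, Ppargc1b, Arhgap35, Jarid2, Eif4g1, Casz1, Foxn3, Polr2a, Fndc5, Smarca4, Atp2a2, Ncor1 and Myocd. The score ranges on either side of the threshold overlapped, and the genes just outside it reached higher. A further 11 of the 35 genes had 6 summits, and Tacc2 had the most, 14.

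**Figure D1:**
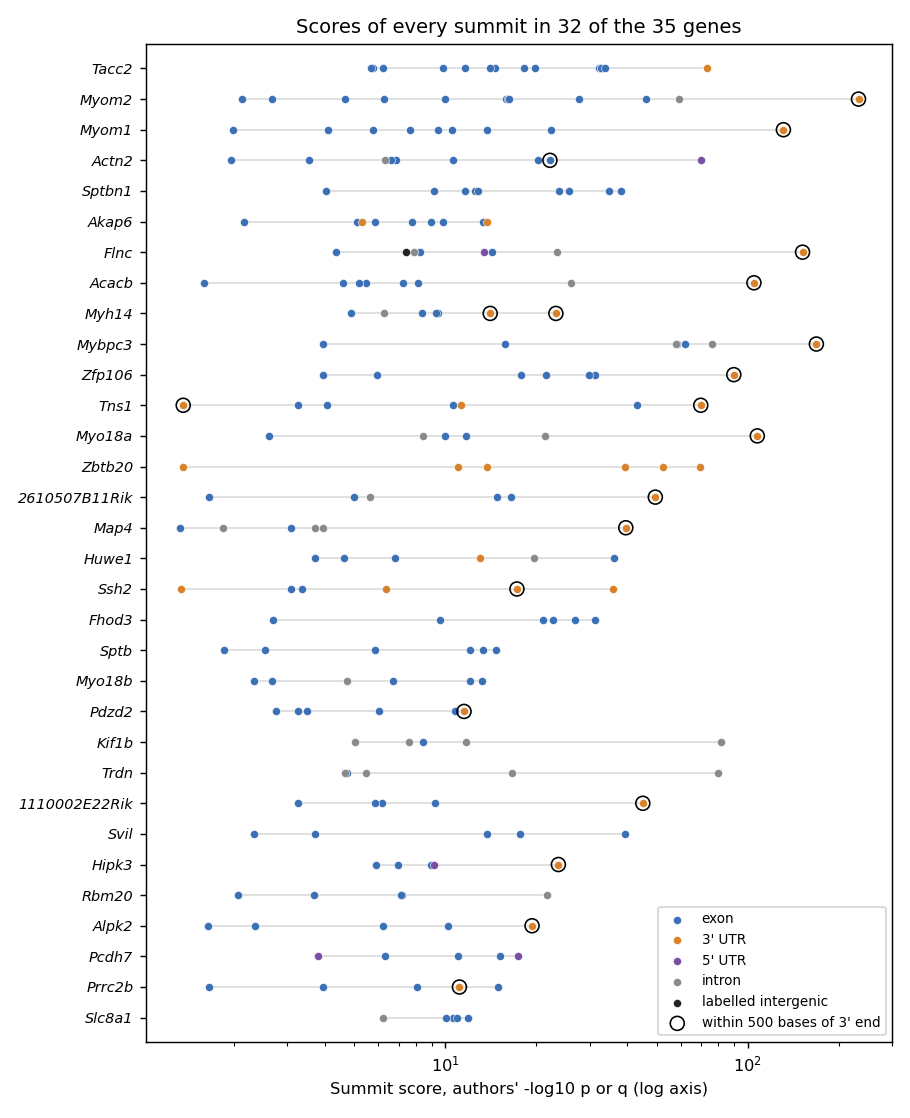
Scores of every summit in 32 of the 35 genes, 1 row per gene, on a log axis of the authors' -log10 p or q, coloured by where the table placed the summit; rings mark summits within 500 bases of the RefSeq 3' end of the gene. Many rows end on the right in a 3' UTR summit, the strongest in 19 of the 35 genes, while exon summits fill the lower scores.

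Most summits lay in coding exons. The table labels exons, UTRs and introns, and an exon label in a protein-coding gene was taken here as coding exon. So placed, 171 of the 241 (71.0%, interval 64.8 to 76.6) were in coding exons, 35 (14.5%, 10.3 to 19.6) in 3' UTRs, 29 (12.03%, 8.21 to 16.8) in introns and 5 (2.07%) in 5' UTRs. A further summit was assigned to Flnc but labelled intergenic. The 171 include an Actn2 summit labelled last exon, 121 bases from the 3' end. The longest Actn2 transcript has a 3' UTR of 3080 bases, so that summit may lie in the 3' UTR. Outside these genes and the 15 set aside by name the placement was the other way round: of 1249 summits 29.1% (26.6 to 31.8) were in coding exons and 54.9% (52.1 to 57.7) in 3' UTRs. The 15 genes, Ttn among them, stood at the far end, with 91.9% of 530 summits in coding exons and 2.83% in 3' UTRs. Introns held 12.03% of summits in the 35 genes, 5.04% in the rest and 4.53% in the 15 genes. Whether a summit labelled intronic lies in an exon or 3' UTR of another transcript of its gene was not examined.

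The share of bases in each region gives a scale for these shares. In the longest coding transcript, 3' UTRs made up a mean of 27.2% of the bases, with each gene weighted by its number of exonic summits. They held 16.6% of the exonic summits, a ratio of 0.61. The ratio was 0.45 with the transcript of longest 3' UTR and 0.72 with the Ensembl canonical transcript. The longest transcript need not be the one the table used. That of Myom1 has 10 exons and 70.6% of its bases in the 3' UTR, while its summits were labelled up to exon 23. In other genes with a summit 3' UTRs made up 41.8% of the bases and held 64.3% of the exonic summits, a ratio of 1.54, with 1.35 and 1.60 for the other transcripts. Genes chosen for many summits and genes that mostly have 1 are not alike in this measure, so the ratios are a description.

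Scores differed by placement. Coding exon summits had a median score of 8.39, intron summits 8.41, 5' UTR summits 13.4 and 3' UTR summits 23.2. The strongest summit of the gene lay in the 3' UTR in 19 genes, in a coding exon in 9, in an intron in 5 and in the 5' UTR in 2. A 3' UTR summit was present in 23 genes, and 18 of these had exactly 1. In 4 genes (Sptbn1, Sptb, Fhod3 and Svil) every summit lay in a coding exon, and 17 genes had at least 1 intron summit. The spread within a gene was wide: the highest score was a median of 12.9 times the lowest, from 1.92 times in Slc8a1 to 110 times in Myom2. The highest was a median of 2.07 times the next, from 1.03 times in Akap6 to 10.0 times in Map4.

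**Figure D2:**
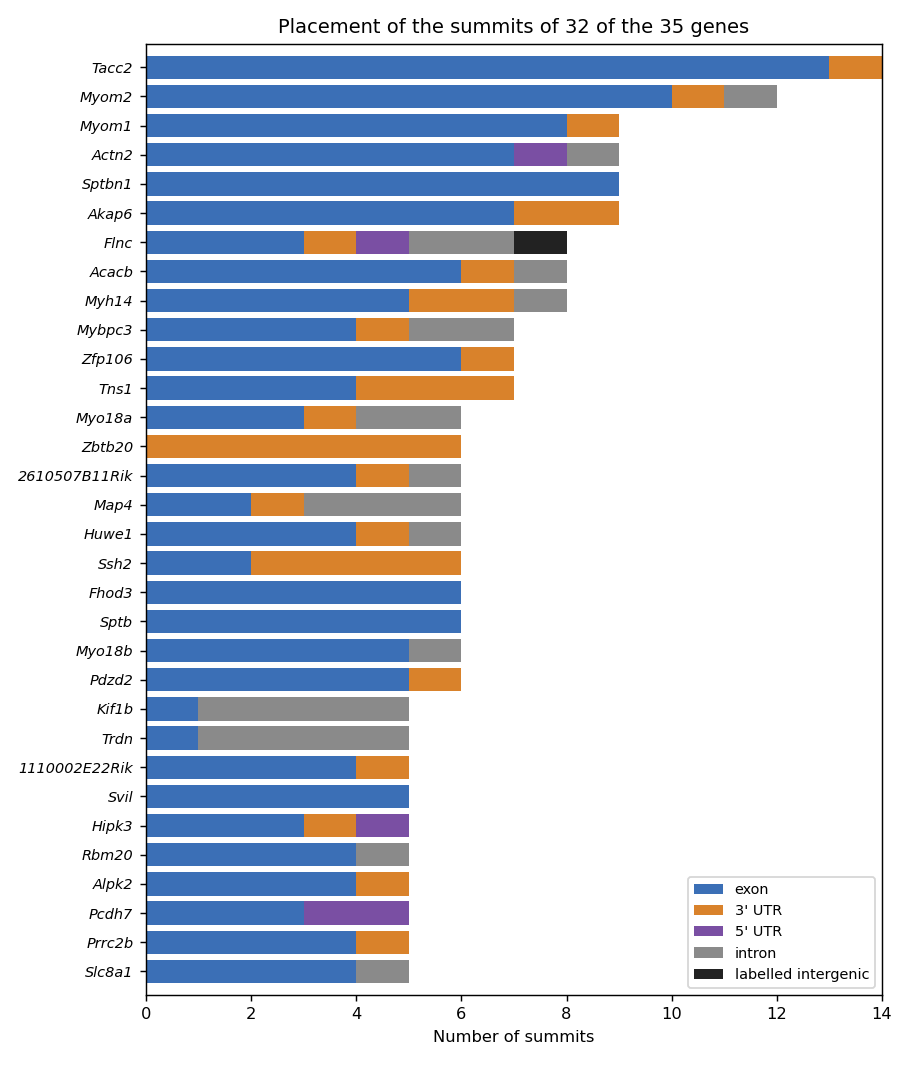
Number of summits of 32 of the 35 genes, 1 bar per gene, split by the table's label. Zbtb20 has 3' UTR summits alone (6), Ssh2 has 4 of 6 in the 3' UTR, Kif1b and Trdn are mostly intronic (4 of 5 each), and Sptbn1 has 9 exon summits and no other.

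The 3' UTR summits were often at the very end of the gene. Within 500 bases of the RefSeq 3' end, 20 of the 35 genes (57.1%, interval 39.4 to 73.7) had a summit, against 48.7% of the protein-coding genes with a summit. The share is close to that background. The stronger or sole end summit of each of the 20 genes lay a median of 209 bases from the end, and in 18 genes between 100 and 300 bases from it. All 22 end summits had a median score of 31.6, and that of the 219 summits elsewhere in the 35 genes was 8.98. The end summit was the strongest of its gene in 15 of the 20 genes and exceeded the median of the gene's other summits in 19 of 20, by a median of 4.86 times (range 0.93 to 19.3). Of genes with 2 to 4 summits, 46.2% had an end summit, and it was the strongest in 70 of 102. The 14 other 3' UTR summits had a median score of 13.4.

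**Figure D3:**
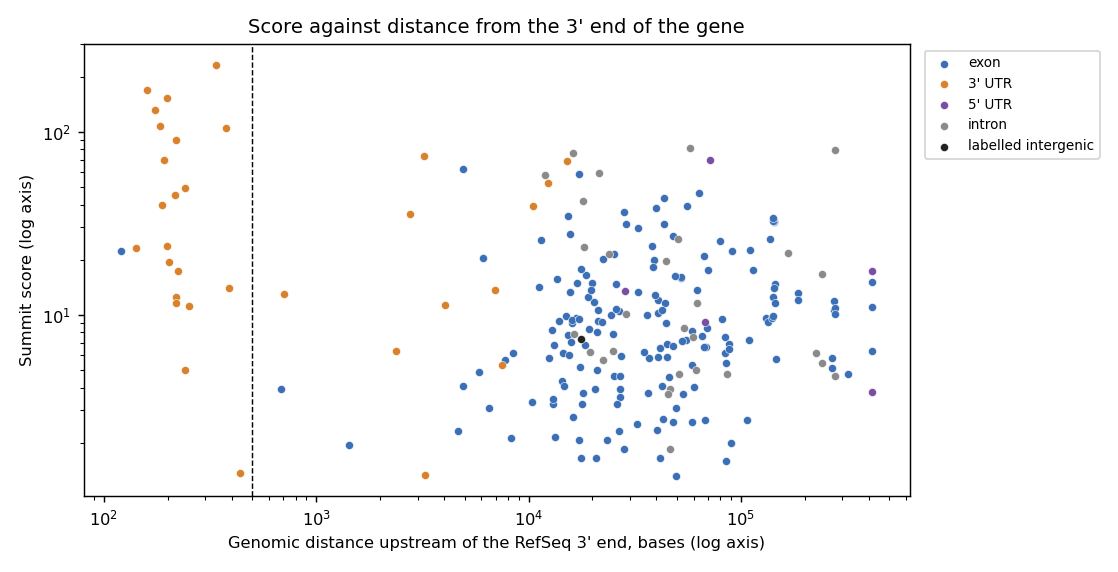
Score of each summit (log axis) against its genomic distance upstream of the RefSeq 3' end of its gene in bases (log axis), with the 500 base window as a dashed line; 3 summits of Zbtb20 lie beyond the end and are not drawn. The group on the left holds 22 summits with a median score of 31.6, and the 219 others, drawn or not, have a median of 8.98.

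By function, the 35 genes fall into 8 groups, which were set by hand once the genes were known. The Gene Ontology terms in the deposited table gave cytoskeleton for 12 of the 35 (34.3%) and for 65 of 882 other genes with a summit (7.37%). Actin binding was given for 10 (28.6%, against 3.29%), the Z disc for 6 (17.1%, against 1.59%) and the M band for 4 (11.4%, against 0.11%). Nucleus was given for 6 (17.1%, against 33.1%). These terms were picked after the genes were known and are a description. Positions below are in GRCm38, and exon and intron numbers are those of the table's transcript.

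The sarcomere group was the largest, with 7 genes and 64 summits, of which 50 lay in coding exons and 4 in 3' UTRs. Myom2 (ENSMUSG00000031461, chromosome 8), a myomesin that crosslinks thick filaments at the M-band, had the highest score of all 35 genes, 233 at 15133083 in the 3' UTR, 337 bases from the end. Its other 11 summits scored 2.67, 46.1, 15.9, 16.1, 16.3, 6.26, 4.65, 9.96, 59.2, 27.6 and 2.13 in order along the gene, from 15065792 in exon 3 to 15125194 in exon 32. All were in exons apart from the 59.2 at 15111886 in intron 22. The end stood 3.93 times above the next, the one in intron 22, and the rest ranged widely.

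Myom1 (ENSMUSG00000024049, chromosome 17), the related myomesin of the same structure, had 9 summits with a similar layout. Its 3' UTR summit scored 131 at 71126681, 175 bases from the end. The 8 exon summits, from 71036404 in exon 4 to 71100086 in exon 23, scored 22.3, 1.98, 9.42, 7.66, 13.7, 4.09, 5.78 and 10.5. All 9 also fell within a gene without a symbol (ENSMUSG00000097625), where the table called them intronic, and reads of the 2 genes cannot be told apart in this table.

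Mybpc3 (ENSMUSG00000002100, chromosome 2), cardiac myosin-binding protein C, which regulates the thick filament, had 7 summits and the shortest transcript of the 35 genes, 4163 bases. Its median score, 58.4, was the highest of any of them. Along the gene the scores were 58.4 at 91119272 in exon 2, 76.1 at 91120287 in intron 4, 15.7 in exon 12, 58.0 in intron 15, 62.2 in exon 25 and 3.94 in exon 33. The last was 169 at 91136356 in the 3' UTR, 160 bases from the end. Apart from exons 12 and 33, summits of high score ran the whole length of the gene, and 2 of them were in introns.

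Actn2 (ENSMUSG00000052374, chromosome 13) encodes alpha-actinin 2, which crosslinks thin filaments at the Z-disc. Of its 9 summits the strongest lay at the other end, 70.3 at 12340562 in the 5' UTR. The following 7 scored 6.60, 3.53, 6.30, 20.2, 10.6, 6.84 and 1.95, from exon 2 to exon 20, with the 6.30 in intron 8. The last, 22.2 at 12269547, was labelled last exon, 121 bases from the end. Only the 5' UTR summit of Actn2 reached the upper quartile of the list, 28.3. Its summit at the 3' end, 22.2, was close to the 20.2 in exon 10.

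Flnc (ENSMUSG00000068699, chromosome 6), filamin C, a muscle actin crosslinker at Z-discs and at the membrane, had 8 summits. The 3' UTR summit scored 152 at 29461691, 198 bases from the end. The others scored 13.4 in the 5' UTR, 23.3 in intron 10, 7.38 at 29444199, labelled intergenic, 7.87 in intron 15, 4.33 in exon 21, 8.23 in exon 23 and 14.2 in exon 25. The end stood 6.51 times above the next. Fhod3, a formin that assembles actin in the sarcomere, had 6 summits, all in exons 10 to 18, and scores from 2.69 to 31.2.

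**Figure D4:**
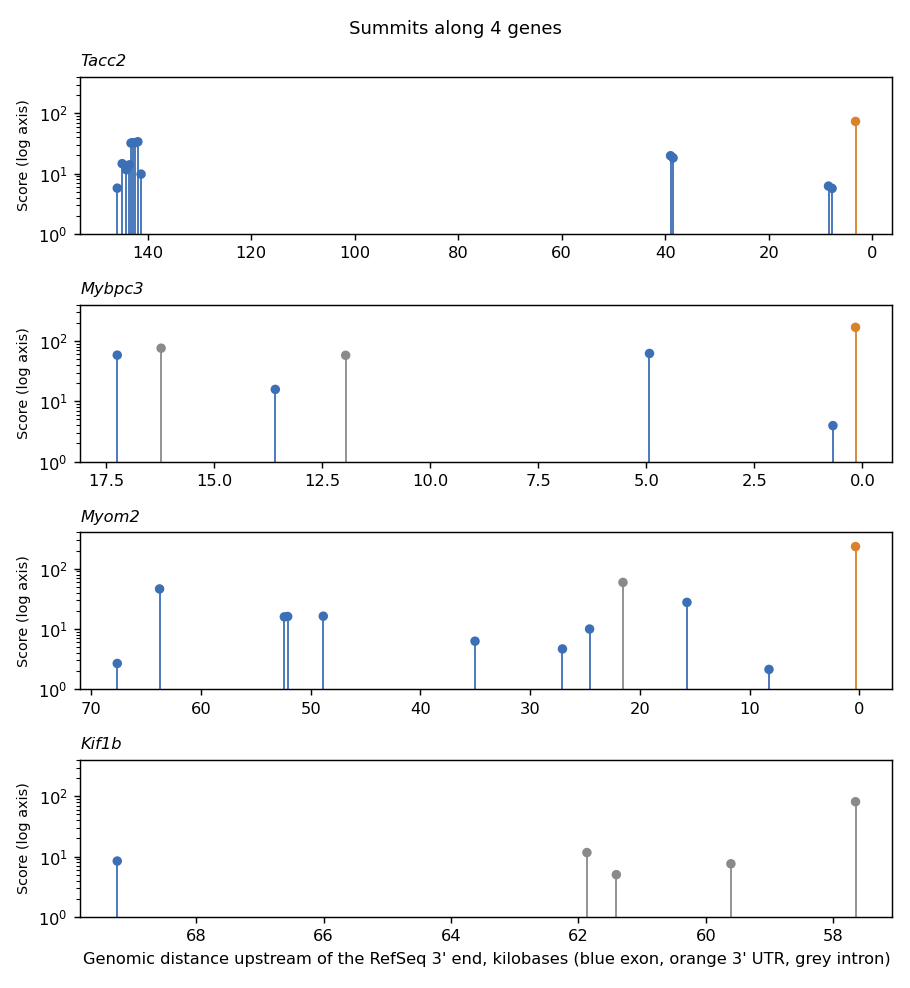
Summits along Tacc2, Mybpc3, Myom2 and Kif1b, as score (log axis) against genomic distance upstream of the RefSeq 3' end in kilobases, transcribed from left to right. Tacc2 shows a cluster of 9 in exon 3, Mybpc3 high scores along its length, Myom2 its highest score, 233, at the end, and Kif1b 4 summits in intron 22.

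Membrane skeleton and adhesion genes (5 genes, 32 summits) had 27 summits in coding exons and 3 in 3' UTRs, all of the latter in Tns1. Sptbn1 (ENSMUSG00000020315, chromosome 11), a beta spectrin of the mesh under the cell membrane, had 9 summits, all in exons. From 30159390 in exon 2 to 30110819 in exon 29 they scored 4.02, 11.6, 38.2, 12.8, 23.8, 9.18, 12.5, 34.8 and 25.6. The strongest, at 30139283 in exon 13, was 1.10 times the next. Sptb, the beta spectrin best known from red blood cells, had 6 exon summits with scores from 1.85 to 14.7, in exons 14 to 23. None of the 3 erythroid markers had a summit, and the cell source of the Sptb reads was not tested.

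Tns1 (ENSMUSG00000055322, chromosome 1), tensin 1, which links actin to integrins at adhesions, had 7 summits, 3 of them (42.9%) in the 3' UTR. The exon summits scored 43.2 and 10.6 in exon 19, 3.25 in exon 25 and 4.07 in exon 26. Those of the 3' UTR scored 11.3 at 73914253, 1.36 at 73910669 and 70.0 at 73910423. The weakest and the strongest summit of Tns1 were thus both at its end, 437 and 191 bases from it. Svil, supervillin, which binds actin and myosin, had 5 exon summits from 2.32 to 39.2. Pcdh7, a protocadherin of the cell surface, had 5 summits in 1 peak, 2 in the 5' UTR and 3 in exon 1, with scores from 3.79 to 17.4. All 5 of Pcdh7 also fell within 4932441J04Rik, which had no symbol in the table.

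Myosins, microtubule proteins and motors (6 genes, 45 summits) had 29 coding exon, 5 3' UTR and 11 intron summits. Tacc2 (ENSMUSG00000030852, chromosome 7), a coiled-coil protein of centrosomes and microtubules, had 14 summits in 8 peaks. In exon 3, from 130621858 to 130626458, 9 summits scored 5.74, 14.6, 11.6, 14.0, 32.2, 32.7, 32.7, 33.8 and 9.82. The other exon summits scored 19.8 and 18.2 in exon 7, 6.21 in exon 19 and 5.68 in exon 21, and the 3' UTR summit scored 73.6 at 130764491. Exon 3 is 5121 bases long, its summits covered 4600 of them, and the 4 in a row above 32 lay between 130624511 and 130625843.

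Myh14 (ENSMUSG00000030739, chromosome 7), a heavy chain of nonmuscle myosin, had 8 summits, called only in its later exons, from 44627123 in exon 26 on. They scored 9.28 in exon 26, 6.25 in intron 27, 8.39 in exon 28, 9.42 in exon 31, 9.38 in exon 32 and 4.88 in exon 38. Both 3' UTR summits were near the end, 14.1 at 44606192 and 23.2 at 44605945. The scores were even, the highest 4.75 times the lowest. With no read counts, signal in the earlier exons was not analysed here.

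Myo18a (ENSMUSG00000000631, chromosome 11), an unconventional myosin, had 6 summits. They scored 8.41 in intron 2, 2.60 in exon 4, 9.97 in exon 19, 21.4 in intron 24, 11.7 in exon 30 and 108 at 77865805 in the 3' UTR, 183 bases from the end. Its relative Myo18b, needed to build sarcomeres, also had 6, but with none in the 3' UTR and scores from 2.32 to 13.2. Without its end summit, Myo18a had scores from 2.60 to 21.4, a range that overlapped that of Myo18b.

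Map4, a microtubule-associated protein, had 5 weak summits from 1.32 to 3.95, of which 3 lay in intron 8, and a summit of 39.5 at 110083767 in the 3' UTR, 187 bases from the end. It was the gene with the widest step from the strongest to the next, 10.0 times. Kif1b, a kinesin that carries cargo along microtubules, had 1 summit in exon 21 and 4 in intron 22, and the strongest was 81.4 at 149233968 on chromosome 4. That one was the nearest to the end, at 57649 bases, as the plot of summits along 4 genes shows.

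Calcium handling was represented by Slc8a1 and Trdn, with 10 summits and none labelled as 3' UTR. Slc8a1, the sodium-calcium exchanger of heart muscle, had 4 summits of nearly equal score in exon 1, 10.1, 10.9, 10.6 and 11.9, all in 1 peak, and 6.20 in intron 1. It had the narrowest spread of the 35 genes. Trdn, triadin, which anchors calsequestrin at the calcium release channel, had 4 of 5 summits labelled intronic. They scored 79.8 at 33198038 and 4.65 in intron 8, and 16.6 and 5.45 in intron 10, on chromosome 10. The exon 3 summit of Trdn scored 4.72.

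Among kinases, phosphatases and anchoring proteins (4 genes, 25 summits), 16 summits lay in coding exons and 8 in 3' UTRs. Akap6 (ENSMUSG00000061603, chromosome 12), which anchors protein kinase A at the nuclear envelope of muscle cells, had 9 summits in 5 peaks. Exon 4 held 5.11 and 5.83, exon 13 held 8.96, 13.3, 7.75, 9.81 and 2.15, and the 3' UTR held 5.28 and 13.7. The strongest, 13.7 at 53148587, was 6981 bases from the end and barely above 13.3 at 53139853. Scores of Akap6 were low and even, and none reached the upper quartile of the list.

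Ssh2 (ENSMUSG00000037926, chromosome 11), a phosphatase that acts on the actin-severing protein cofilin, had 4 of 6 summits (66.7%) in the 3' UTR. These scored 1.33 at 77456967, 35.7 at 77457462, 6.36 at 77457857 and 17.2 at 77459996. Those labelled as exon scored 3.35 in exon 14 and 3.09 in the last exon. The strongest was 2758 bases from the end, ahead of the one at 224 bases. Alpk2, an alpha-kinase, had 5 summits from 1.64 to 19.3, and Hipk3, a kinase of the nucleus, had 5 from 5.89 to 23.6, both strongest near the end, at 202 and 198 bases from it.

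Huwe1, a large ubiquitin ligase that marks proteins for turnover, had 6 summits. The strongest scored 36.2 at 151907322 on chromosome X in exon 54, and the others ran from 3.71 to 19.7, with 13.0 in the 3' UTR, 708 bases from the end.

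Genes of the nucleus and of RNA (5 genes, 28 summits) had 18 summits in coding exons and 9 in 3' UTRs. Zbtb20 (ENSMUSG00000022708, chromosome 16), a zinc finger repressor of transcription, had all 6 in the 3' UTR. They scored 69.5 at 43619223, 52.4 at 43621993, 39.2 at 43623947, 13.7 at 43637898, 1.36 at 43642159 and 10.97 at 43642392. The 3 strongest were the first 3, and the others lay beyond the RefSeq end of the gene. The longest transcript of Zbtb20, 28521 bases, is the longest of the 35 genes, and its 3' UTR takes up 23861 of them.

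Zfp106, a zinc finger protein that binds RNA, had 7 summits, with 90.0 at 120507039 on chromosome 2 in the 3' UTR and from 3.92 to 31.4 in exons 4 to 11. Rbm20, the splicing factor known for titin, had its strongest in intron 1, 21.7, and 4 exon summits from 2.06 to 7.20. Prrc2b had 5 from 1.65 to 14.9 and was strongest in coding exon 16, although it also had a summit of 11.1 at the end. Scores thus led at the end in Zfp106 but not in Prrc2b.

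Acacb (ENSMUSG00000042010, chromosome 5), acetyl-CoA carboxylase 2, which restrains fatty acid entry into mitochondria, had 8 summits. The 3' UTR summit scored 105 at 114250383, 378 bases from the end. The others scored 1.59 and 5.45 in exon 2, 8.11 in exon 9, 7.23 in exon 10, 25.9 in intron 14, 4.59 in exon 18 and 5.19 in exon 39. The highest was 65.9 times the lowest, a spread passed in these genes only by Myom2 and Myom1 (66.3 times). Of the less studied genes, 2610507B11Rik had 6 summits, 49.5 at the end and up to 16.5 elsewhere, and 1110002E22Rik had 5, 45.0 at the end and up to 9.21 elsewhere. Pdzd2, a PDZ domain protein, had 6, and its end summit, 11.5, was 1.07 times the next, 10.7.

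Some coding exons held several summits. In 18 of the 35 genes at least 1 coding exon held more than 1 summit, 22 exons and 65 summits in all. Neighbours within such an exon were a median of 491 bases apart, with quartiles of 340.5 and 673.5 and a range from 43 to 2493. The other numbered exon summits were alone in their exon. By the exon lengths of the canonical transcript, exons of 1000 bases or more held 51 of 169 numbered exon summits (30.2%, interval 23.4 to 37.7). Such exons made up 26.4% of the exonic bases of the 35 genes. As counted, the interval of the first share contains the other. Besides those of Tacc2 and Akap6, such exons included exon 1 of 1110002E22Rik (4 summits in an exon of 5398 bases), exon 16 of Prrc2b (4 in 2061), exon 5 of Alpk2 (3 in 3364), exon 19 of Pdzd2 (3 in 3934) and exon 5 of Zfp106 (3 in 2169). In 20 of the 22 exons the summits fitted within the exon's length in the canonical transcript. In Slc8a1 exon 1 and Sptbn1 exon 13 they did not, so the table's numbering differs from that transcript there. The 4 summits of Slc8a1 exon 1 span 1467 bases but were counted at the canonical length of 154. The 51 summits in long exons, and their share, are therefore too low.

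Peaks with more than 1 summit made up 14.6% of the peaks of the 35 genes (29 of 198) and 13.4% of those outside them. Of the 241 summits, 23 in 7 genes (Myom1, Pcdh7, Zfp106, Trdn, Myo18b, Prrc2b and 1110002E22Rik) were also assigned to another gene. The 4 genes without a symbol were almost wholly such overlaps. Gm13938 had 112 summits, all shared with Ttn, A630019I02Rik had 8, all shared with Cmya5, 4932441J04Rik had 5, all shared with Pcdh7, and ENSMUSG00000097625 had 10, of which 9 were shared with Myom1.

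The 35 genes have long mRNAs. Their longest coding transcripts had a median of 9178 bases, against 5095 for other protein-coding genes with a summit and 3257.5 for those without. Their coding sequences had a median of 6123 bases against 1896 for other genes with a summit, and 29 of the 35 exceeded the upper quartile of the transcript lengths of those genes. Per kilobase of transcript the 35 genes had a median of 0.67 summits and the others 0.25. Among annotated protein-coding genes, 8013 have a transcript as long as that of Mybpc3 or longer, and 595 of these had a summit. Of the 8013, 50, or 0.62%, had 5 or more summits. The 8013 were not limited to genes expressed in the heart. Mybpc3 has the shortest transcript of the 35 genes, so all 35 pass this length by construction.

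**Figure D5:**
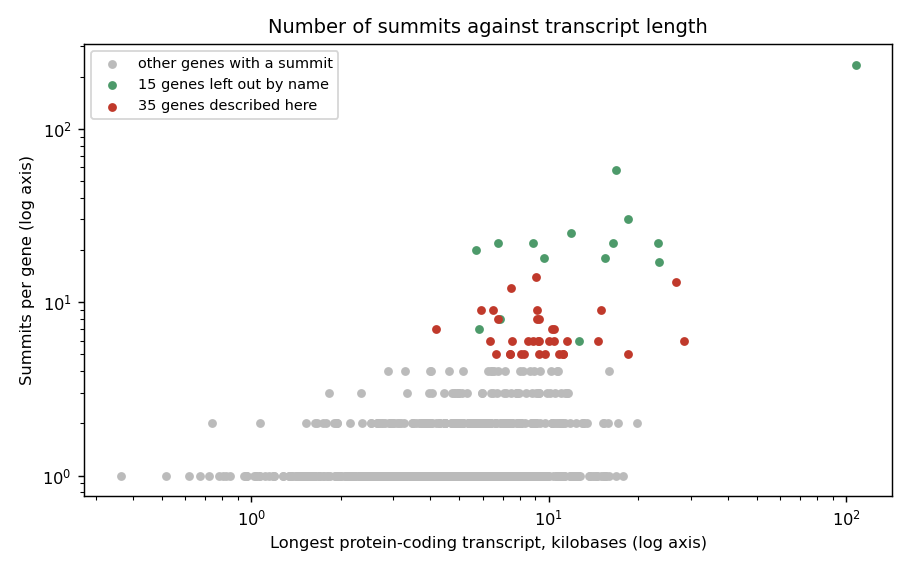
Number of summits per gene against the length of its longest protein-coding transcript in kilobases (both log axes), for the 35 genes (red), the 15 genes left out by name (green) and other protein-coding genes with a summit (grey). The red points lie to the right, with a median length of 9178 bases against 5095, and Mybpc3, at 4163 bases, is the leftmost of them.

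Related genes that fell short of 5 summits were counted in 10 lists of the same pathways. Over all annotated protein-coding genes 4.22% had a summit, and of all genes with a summit 5.56% had 5 or more. The annotated genes were not limited to those expressed in the heart, while the lists were picked by hand, so the counts are a description. Of 37 sarcomere proteins 15 had a summit, 8 of them 5 or more, and those with fewer were led by Tcap (1 summit, 109), Ldb3 (3, strongest 63.9), Synpo2 (1, 28.2) and Palld (1, 13.1). Of 30 spectrin, ankyrin and dystrophin proteins 12 had a summit, 4 of them 5 or more, and Des (2, strongest 60.8), the muscle intermediate filament, led the rest. Of 40 genes of membrane traffic, motors and organelle contacts 14 had a summit, 4 of them 5 or more, and Mfn2 (3, strongest 272), which fuses mitochondria, and Jph2 (3, 95.2), which ties the calcium store to the cell membrane, led the rest.

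Other lists gave few genes with many summits. Of 38 genes of RNA processing and translation 20 had a summit and 2 had 5 or more, with Eif4g1 (4, strongest 152) and Son (3, 130) leading the rest. Of 47 chromatin and transcription regulators 25 had a summit and 1 had 5 or more, with Ppargc1b (4, strongest 105) leading those with fewer. Of 30 large ubiquitin ligases and turnover genes 16 had a summit and 2 had 5 or more, and Usp34 (1, 67.2) led the rest. Of 32 energy metabolism genes 15 had a summit and only Acacb had 5 or more, although Lpl reached 391 with 2 summits and Slc25a4 248 with 1.

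Of 30 ion channels and transporters 7 had a summit and only Slc8a1 had 5 or more, with Atp2a2 (4, strongest 28.3) among the rest. Of 30 annotated kinase anchors and scaffolds 9 had a summit and Akap6 and Map4 had 5 or more, with Ppp1r12b (1, 42.7) next. Of 34 extracellular matrix and cell surface genes 3 had a summit and none had 5 or more: Hspg2 (1, 60.7), Col1a1 (1, 24.9) and Insr (1, 4.72).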

How the data were processed

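RIP and Input libraries from mouse hearts were each sequenced once. Per the submitters' processing notes, the tools named are fastp, BWA 0.7.12, MACS2 2.1.0 and HOMER, and the build named is GRCm39. The deposited table lists summits with a -log10 p or q value as score, from 1.32 up, per its values the authors' own; whether it is p or q is not given in the sources used here. Its positions fit GRCm38: 98.9% of 1914 lines matched by symbol lie inside the RefSeq GRCm38 bounds of that gene, so positions are given in that build.

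From the 2269 lines, distinct summits were counted per gene (minimum 5), each summit once, with the region label the table gives for that gene. GENCODE, matched by Ensembl ID for 973 of 990 genes, gave gene types and transcript and exon lengths, never positions. RefSeq gave gene ends in GRCm38. Shares have exact Clopper-Pearson intervals at 95%, computed with Python 3.11.15, pandas 2.3.3 and SciPy 1.17.1. The counting was tested on simulated tables. With 1 library per group there was no test. No sequence is printed, as no genome of the table's build was used here.

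Scores are given for every summit of the 8 genes with most summits (ties kept), the 5 with the highest score, the 3 with the highest 3' UTR share and the 3 with the widest score ratio, with positions for the summits that the text turns on. From each gene list up to 4 genes with fewer than 5 summits are named. Genes, lists and functional groups were chosen with earlier results of these data known. Alternatives were other score, peak, overlap and count rules and other transcripts. Some genes of the rule and of the lists are counted but not reported here by name.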

Additional observations from a re-analysis of the deposited data

How the results depend on the processing

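Of 67 alternative values for 8 results, 54 stayed within the interval of the reported value (for counts, within 1.5 times), and 13 moved further. With only summits at or above the median score of the list, 6 genes with 38 summits were left, 78.9% of them in coding exons, with a median score of 28.7 and a median ratio of highest to lowest score of 5.15; dropping the lower scores raises the median and narrows the ratio by construction, and the cause of the move in the exon share was not tested. A minimum of 4 summits gave 56 genes, a minimum of 6 gave a median ratio of 24.9 against 12.9, within its interval, and counting distinct peaks gave 25. Counting only exon and UTR summits gave 80.5% in coding exons, by construction. The following were chosen after seeing the data. With the 4 genes that have no symbol there were 362 summits, 45.5% in coding exons and 9.31% in 3' UTRs, with a median score of 14.9; 112 of the summits added are those of Ttn. Without summits within 500 bases of a 3' end, 77.6% were in coding exons and 6.39% in 3' UTRs. Leaving out Tacc2 moved none of the results it was tried on, and neither did the canonical transcript or windows of 300 and 1000 bases (18 and 21 genes). No paired analysis was possible because there is 1 RIP and 1 Input library and no result comes from a test. The table holds no read counts, so what depth limits is unknown, and a region without a summit is not shown to lack signal.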
